A study of Mus musculus with 8 samples.

Results

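The genes for RANKL, osteoprotegerin, RANK and for the CSF1 receptor with its ligands CSF1 and IL34, which together set how osteoclasts form, were followed across 8 RNA-seq libraries from mouse bone. These 6 genes (Tnfsf11, Tnfrsf11b, Tnfrsf11a, Csf1, Il34 and Csf1r) were chosen by symbol and mapped to the Ensembl IDs of the deposited count table. All 6 were found among its 43346 genes, and all 6 were among the 15511 that passed the filter on low counts. The libraries were made from total RNA of fractions enriched for osteocytes, the cells buried in mineralized bone, of C57BL/6 mice aged 12 weeks. There were 3 from the femur (numbered 1, 2 and 4 in the labels), 3 from the frontal bone (1, 2 and 4) and 2 from the parietal bone (2 and 4), with no treatment or altered allele named for any of them. The frontal and parietal bones are flat bones of the skull vault and are called calvaria here when considered as 1 group (n = 5). Separate animals or pooled ones are not told apart in the labels, so p-values here reflect library-to-library spread alone, some of which may be technical.

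RANKL, a membrane-bound or shed ligand of the TNF family, binds its receptor RANK on precursors of the monocyte lineage and drives them to become bone-resorbing osteoclasts. Osteoprotegerin is a secreted decoy receptor that captures RANKL, so the balance of the ligand and the decoy is a common readout of the drive to resorb bone, and in mice osteocytes are a known source of both. CSF1 keeps these precursors alive and dividing through the receptor tyrosine kinase CSF1R, and IL34 is a second ligand of the same receptor, known in mice for maintaining Langerhans cells and microglia.

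RefSeq promoter entries were matched for Tnfsf11, Csf1 and Tnfrsf11a, and all 3 are shown. Tnfsf11 and Csf1 were lower in calvaria on the CPM scale, and the receptor gene Tnfrsf11a did not pass the test. Tnfrsf11b and Il34 had no entry, and Csf1r is named only. Each sequence runs 5′ to 3′ on the strand of the gene from 250 bases before to 50 bases after the RefSeq start (GRCm38.p6), and capitals mark matches to the motifs searched. The Tnfsf11 window is chr14:78307994-78308293 (minus strand), that of Csf1 is chr3:107760420-107760719 (minus strand) and that of Tnfrsf11a is chr1:105780473-105780772 (plus strand).
Tnfsf11: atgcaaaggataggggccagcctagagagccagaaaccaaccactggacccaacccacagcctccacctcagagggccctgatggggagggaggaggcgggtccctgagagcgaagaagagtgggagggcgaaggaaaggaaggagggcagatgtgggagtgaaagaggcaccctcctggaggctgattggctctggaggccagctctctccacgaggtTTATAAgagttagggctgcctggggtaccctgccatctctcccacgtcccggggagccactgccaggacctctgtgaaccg
Csf1: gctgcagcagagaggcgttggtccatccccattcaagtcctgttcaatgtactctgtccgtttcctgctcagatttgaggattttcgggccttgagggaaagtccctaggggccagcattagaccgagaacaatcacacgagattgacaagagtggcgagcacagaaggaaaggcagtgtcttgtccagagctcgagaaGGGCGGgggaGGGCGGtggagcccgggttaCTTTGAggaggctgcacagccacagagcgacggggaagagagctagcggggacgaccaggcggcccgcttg
Tnfrsf11a: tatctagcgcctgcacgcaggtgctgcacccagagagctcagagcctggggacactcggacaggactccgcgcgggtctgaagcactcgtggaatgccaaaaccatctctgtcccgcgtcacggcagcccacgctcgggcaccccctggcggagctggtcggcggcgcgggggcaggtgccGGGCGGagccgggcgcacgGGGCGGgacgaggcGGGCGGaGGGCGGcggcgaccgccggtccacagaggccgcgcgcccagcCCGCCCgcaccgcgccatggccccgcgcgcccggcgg
Of 6 motifs searched on both strands, the TATA core TATAA was found in the Tnfsf11 window alone of the 3, at position -30 from the start, with an overlapping match on the other strand from -31, and it occurs in 24.9% of 32851 mouse promoter windows. The GC box GGGCGG, present in 35.7% of windows, occurred at -51 and -41 in Csf1 and at -69, -50, -36, -29 and, on the other strand, 14 in Tnfrsf11a. The TCF/LEF core CTTTGA (16% of windows) was found in Csf1 at -21. The RUNX core TGTGGT (16.8% of windows), the AP-1 site TGANTCA (7.81%) and the CRE TGACGTCA (1.79%) were not in these 3 windows. GC content was 61.7% for Tnfsf11, 58.7% for Csf1 and 76.7% for Tnfrsf11a, against a median of 52.7% over all windows. These matches describe letters and say nothing of binding.

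Library totals ran from 6259229 to 13461622 gene counts, and levels are given as CPM (counts scaled to a library of 1000000) on the TMM scale, the trimmed mean of M values, which takes most genes as equal between libraries. The fractions differed in their markers. The 11 osteocyte markers, all with counts in each bone, took 2.34 to 4.60% of counts in femur and 0.0779 to 0.145% in calvaria. Most of the femur share came from Dmp1 (mean 35310 CPM in femur, 528 in calvaria). Of the 11 markers, 9 were lower in calvaria (median log2 fold change -3.44, against 0.01 over all tested genes). Osteoclast markers took 0.171 to 0.366% in femur and 0.582 to 0.772% in calvaria, and monocyte and macrophage markers 0.376 to 0.67% and 1.37 to 1.81%. Such shares are sums that abundant genes dominate. Most of these 2 rises came from Car2 (mean 648 CPM in femur, 3428 in calvaria) and Lyz2 (3612 and 12300 CPM). Gene by gene, 6 of 12 osteoclast markers were higher and 1 lower, and 11 of 14 monocyte and macrophage markers higher and 2 lower. Erythroid markers took 1.20 to 2.93% and 7.04 to 11.2%, granulocyte markers 1.62 to 4.2% and 6.18 to 8.40%, B cell markers 0.018 to 0.026% and 0.0659 to 0.0804%, and T and NK cell markers 0.00542 to 0.00937% and 0.0212 to 0.0294%. Osteoblast markers (6.38 to 8.87% against 1.22 to 3.27%), endothelial markers (0.053 to 0.0625% against 0.0228 to 0.0296%) and cartilage markers (0.0298 to 0.0795% against 0.00238 to 0.0041%) took more in femur. Every marker of these lists had counts in each bone. In bulk RNA, fewer cells of a type and less RNA per cell cannot be told apart, and the part of these shares in the results below was not tested.

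Against femur, Tnfrsf11b, Tnfsf11 and Csf1 were lower in calvaria, 30.4-fold, 5.07-fold and 3.33-fold, Il34 was 2.81-fold higher, and the receptor genes Tnfrsf11a and Csf1r did not pass the test, all on the TMM scale. With libraries scaled to the osteocyte markers instead, Tnfrsf11b stayed lower and Il34 higher, Tnfsf11 and Csf1 turned to higher, and both receptor genes were higher. On that scale 95.2% of all tested genes were higher in calvaria and 0.954% lower, so that call alone sets no gene apart from the rest. By edgeR's quasi-likelihood test 3 of the 6 genes were lower and 1 was higher at an adjusted p under 0.05, where 31.4% of all tested genes were lower and 29.6% higher. In frontal bone alone the same 3 were lower and the same 1 higher (28.5% and 27.2% of all genes), and likewise in parietal bone alone (28.6% and 27.1%). These comparisons share the femur libraries. The calvarial and femur libraries did not overlap for the 3 lower genes, as for 27.5% of all tested genes, or for the 1 higher gene, as for 26.0%.

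**Figure D1:**
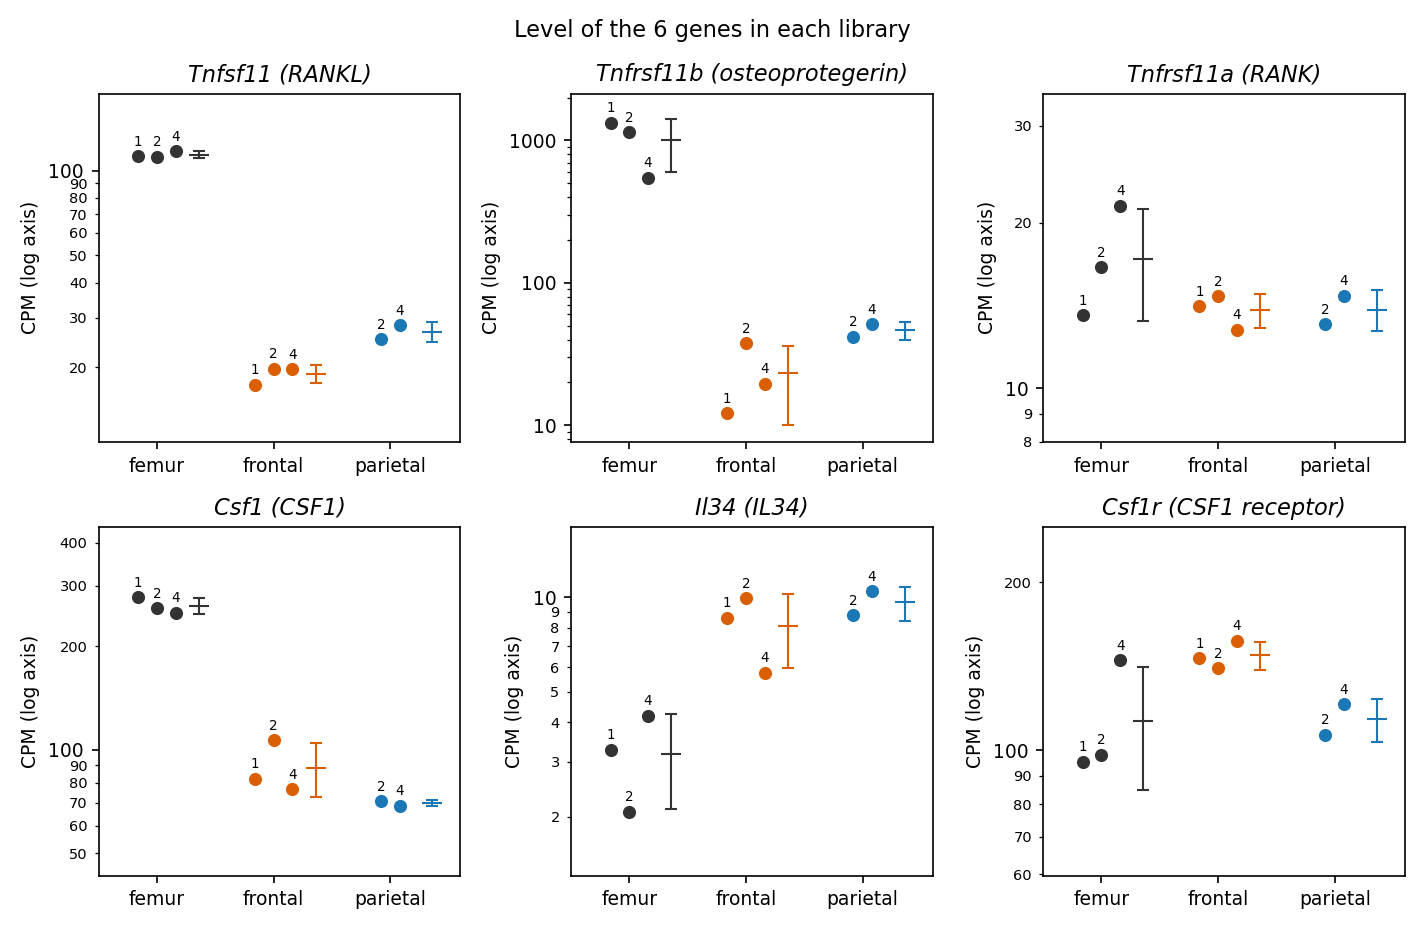
Level of each of the 6 genes in CPM on the TMM scale (log axis) in every library, by bone, with library numbers; bars beside the points give the mean and SD. Femur libraries lie above all calvarial ones for Tnfsf11, Tnfrsf11b and Csf1 and below them for Il34, while those of Tnfrsf11a and Csf1r overlap; scaled to osteocyte markers, Tnfsf11 and Csf1 turn to higher in calvaria.

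Tnfsf11 (ENSMUSG00000022015.8; chromosome 14, 78277445 to 78308043, GRCm38, minus strand) encodes RANKL. It stood at 113, 112 and 117 CPM in femur libraries 1, 2 and 4. It stood at 17.3, 19.8 and 19.7 CPM in frontal libraries 1, 2 and 4, while parietal libraries 2 and 4 showed 25.2 and 28.2 CPM. The femur libraries were alike, with a coefficient of variation of 2.62%, and all lay above the highest calvarial one, while both parietal libraries lay above all 3 frontal ones. The log2 fold change in calvaria was -2.34 ± 0.11 (SE, adjusted p = 4.33e-08 by edgeR), lower than that of all but 4.85% of tested genes. Frontal bone alone gave -2.59 ± 0.13 and parietal bone alone -2.09 ± 0.15. Scaled to the osteocyte markers the calvarial value was 0.80, and 0.63 and 0.96 in the single bones.

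The gap between frontal and parietal bone in Tnfsf11 was -0.49 ± 0.14 on the log2 scale and did not pass (unadjusted p = 0.0048, adjusted p = 0.0567 by edgeR). DESeq2 put it past the threshold (-0.50, adjusted p = 0.0373), while it was -0.19 with the trend over gene length and GC content removed (adjusted p = 0.464 by edgeR) and -0.46 with a replicate block (adjusted p = 0.154 by edgeR). None of the 6 genes passed in that comparison by edgeR, in which 3.29% of all tested genes were lower and 3.91% higher in frontal bone. How many of all genes have frontal and parietal libraries without overlap was not counted. Tnfsf11 was the 1 gene of the 6 with an unadjusted p under 0.05, and the 1 that DESeq2 called.

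Tnfrsf11b (ENSMUSG00000063727.3; chromosome 15, 54250619 to 54278484, minus strand) encodes osteoprotegerin. Its level was 1335, 1138 and 547 CPM in femur libraries 1, 2 and 4. It was 12.2, 37.7 and 19.7 CPM in frontal libraries 1, 2 and 4, while parietal libraries 2 and 4 showed 42.0 and 51.5 CPM. The lowest femur library lay far above the highest calvarial one, and within a bone this gene varied more than any of the other 5 in femur (40.8%) and frontal bone (56.5%). The log2 fold change in calvaria was -4.93 ± 0.41 (adjusted p = 1.46e-05 by edgeR), a fall that 0.419% of tested genes exceeded. Frontal bone alone gave -5.43 ± 0.51 and parietal bone alone -4.43 ± 0.57. Scaled to osteocyte markers it was still lower in calvaria, at -1.76.

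Col2a1, a collagen of cartilage chosen after its values were seen, is set beside Tnfrsf11b because chondrocytes are known to make osteoprotegerin. It stood at 788, 649.7 and 232 CPM in femur libraries 1, 2 and 4. It was 2.39, 8.79 and 2.53 CPM in frontal libraries 1, 2 and 4, while parietal libraries 2 and 4 showed 6.96 and 11.2 CPM. Within each bone the libraries had the same order for Col2a1 as for Tnfrsf11b, but how many of all genes share that order was not counted. Col2a1 was not among the 3 genes nearest to Tnfrsf11b in pattern over the 8 libraries. Cartilage markers as a list were lower in calvaria in 6 of 7 tested cases. Their part in the Tnfrsf11b result was not tested. Frontal and parietal bone differed by -0.998 ± 0.48 in Tnfrsf11b, which did not pass (adjusted p = 0.212 by edgeR). Without frontal library 2, the highest of its bone, it passed (-1.56, adjusted p = 0.0404).

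The ratio of RANKL to osteoprotegerin transcripts, as counts per kilobase of exon, needs no scaling between libraries. It was 0.106, 0.124 and 0.271 in femur libraries 1, 2 and 4. It was 1.79, 0.662 and 1.26 in frontal libraries 1, 2 and 4, while parietal libraries 2 and 4 showed 0.755 and 0.691. In femur the decoy outnumbered the ligand in every library, and in calvaria the ratio lay near 1, above it in 2 libraries and below it in 3. The ratio was 6.23-fold higher in calvaria (log2 difference 2.64), with 5 of 5 calvarial libraries above every femur library (exact two-sided permutation p = 0.0179, the smallest that 56 splits allow; 0.0223 adjusted over 10 relations). This test, also used below, treats all 8 libraries as independent, which the labels do not settle. With 1 library left out the log2 difference was 2.38 to 3.05, still with no overlap. The adjusted p was then 0.0357 to 0.068 by the same exact test, where fewer splits raise the smallest possible p. Both transcripts were lower in calvaria on the CPM scale, the decoy more than the ligand. The frontal and parietal ratios overlapped.

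**Figure D2:**
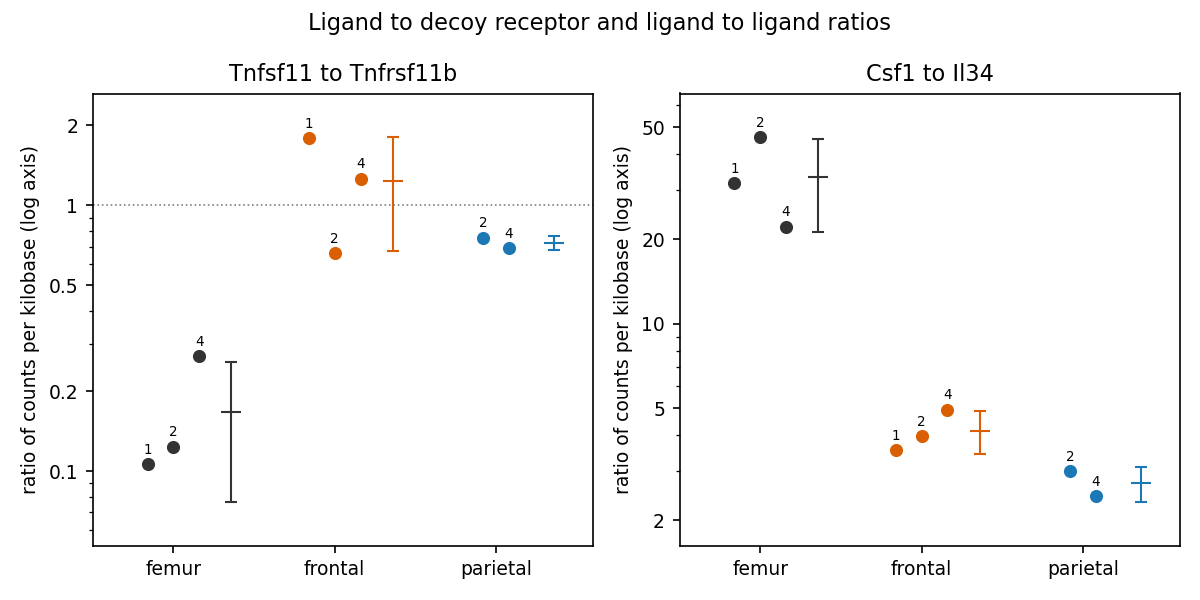
Ratio of Tnfsf11 to Tnfrsf11b (left) and of Csf1 to Il34 (right) in counts per kilobase (log axes) in every library, by bone, with mean and SD; the dotted line marks a ratio of 1. The femur libraries lie at 0.106 to 0.271 on the left and at 22.1 to 46.1 on the right, apart from all calvarial libraries.

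Tnfrsf11a (ENSMUSG00000026321.7; chromosome 1, 105780718 to 105847981, plus strand) encodes RANK, the signalling receptor for RANKL on osteoclast precursors. It had 13.6, 16.6 and 21.5 CPM in femur libraries 1, 2 and 4. It had 14.1, 14.7 and 12.8 CPM in frontal libraries 1, 2 and 4, while parietal libraries 2 and 4 showed 13.1 and 14.7 CPM. The 5 calvarial libraries were close together and overlapped with femur library 1, while femur libraries 2 and 4 lay above them. The log2 fold change of -0.32 ± 0.18 in calvaria did not pass (adjusted p = 0.138 by edgeR). Without femur library 1 it did (-0.48, adjusted p = 0.0414), and on the osteocyte scale it turned to 2.80.

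Csf1 (ENSMUSG00000014599.6; chromosome 3, 107741048 to 107760469, minus strand) encodes the macrophage growth factor that osteoclast precursors depend on. It stood at 278, 258 and 251 CPM in femur libraries 1, 2 and 4. It stood at 82.3, 107 and 76.7 CPM in frontal libraries 1, 2 and 4, while parietal libraries 2 and 4 showed 70.8 and 68.8 CPM. All femur libraries lay above all calvarial ones, and here the frontal libraries lay above the parietal ones, unlike Tnfsf11 and Tnfrsf11b. The share of all genes with such a gap between frontal and parietal libraries was not counted. The log2 fold change in calvaria was -1.74 ± 0.12 (adjusted p = 5.16e-07 by edgeR), with -1.56 ± 0.14 in frontal and -1.91 ± 0.17 in parietal bone. The difference between these bones, 0.35 ± 0.16, did not pass (adjusted p = 0.175 by edgeR). With the trend over gene length and GC content removed it was -1.14 in calvaria and -1.17 in parietal bone, both still past the threshold. On the osteocyte scale the calvarial value was 1.41.

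Il34 (ENSMUSG00000031750.11; chromosome 8, 110741829 to 110805924, minus strand) was the gene with the fewest counts, 19, 22 and 36 in femur libraries 1, 2 and 4. Its level there was 3.27, 2.08 and 4.2 CPM. It was 8.61, 9.94 and 5.76 CPM in frontal libraries 1, 2 and 4, while parietal libraries 2 and 4 showed 8.79 and 10.5 CPM. All calvarial libraries lay above the highest femur one, but the exact 95% Poisson intervals of that library (2.94 to 5.82 CPM) and of the lowest calvarial one, frontal library 4 (4.13 to 7.81 CPM), overlapped. These intervals cover counting error only. The log2 fold change in calvaria was 1.49 ± 0.28 (adjusted p = 0.000752 by edgeR), above that of 93.0% of tested genes, and on the osteocyte scale it was 4.61. Frontal bone alone gave 1.37 ± 0.31 and parietal bone alone 1.61 ± 0.33, and the 2 bones did not differ past the threshold (-0.24 ± 0.31, adjusted p = 0.648 by edgeR). The predicted genes Gm15894 and Gm15895, on the other strand over exons of Il34, had 2 and 3 counts in all femur libraries together and 11 and 2 in all calvarial ones. With no strand setting stated, reads of Il34 and of these genes cannot be told apart.

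The ratio of Csf1 to Il34 in counts per kilobase was 31.6, 46.1 and 22.1 in femur libraries 1, 2 and 4. It was 3.55, 3.98 and 4.94 in frontal libraries 1, 2 and 4, while parietal libraries 2 and 4 showed 2.99 and 2.44. Csf1 was the more abundant ligand in every library, and its excess was smallest in parietal bone, whose 2 libraries lay below all others. That order of frontal and parietal bone was not tested. The ratio was 9.15-fold lower in calvaria (log2 difference -3.19), with 5 of 5 calvarial libraries below every femur library (exact two-sided permutation p = 0.0179, the smallest possible; 0.0223 adjusted over 10 relations). With 1 library left out the log2 difference was -3.46 to -2.93, still with no overlap. The adjusted p was then 0.0357 to 0.068 by the same exact test, where fewer splits raise the smallest possible p.

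Csf1r (ENSMUSG00000024621.11; chromosome 18, 61100598 to 61132149, plus strand) encodes the receptor for both ligands and is carried by monocytes, macrophages and osteoclasts. It stood at 95.4, 98.2 and 145 CPM in femur libraries 1, 2 and 4. It stood at 146, 140.4 and 157 CPM in frontal libraries 1, 2 and 4, while parietal libraries 2 and 4 showed 107 and 121 CPM. Femur library 4 lay among the frontal libraries, and femur libraries 1 and 2 lay below all calvarial ones. The log2 fold change in calvaria, 0.20 ± 0.15, did not pass (adjusted p = 0.267 by edgeR), nor did that in frontal (0.39 ± 0.16, adjusted p = 0.0625) or parietal bone (0.01 ± 0.18, adjusted p = 0.971). Without femur library 4 the calvarial and frontal values passed (0.42, adjusted p = 0.0113, and 0.61, adjusted p = 0.00219). With the trend over gene length and GC content removed all 3 passed (0.86, 0.91 and 0.82). Hmgxb3, on the other strand over exons of Csf1r, had 759 counts in all femur and 415 in all calvarial libraries, and reads of the overlap cannot be assigned to either gene.

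**Figure D3:**
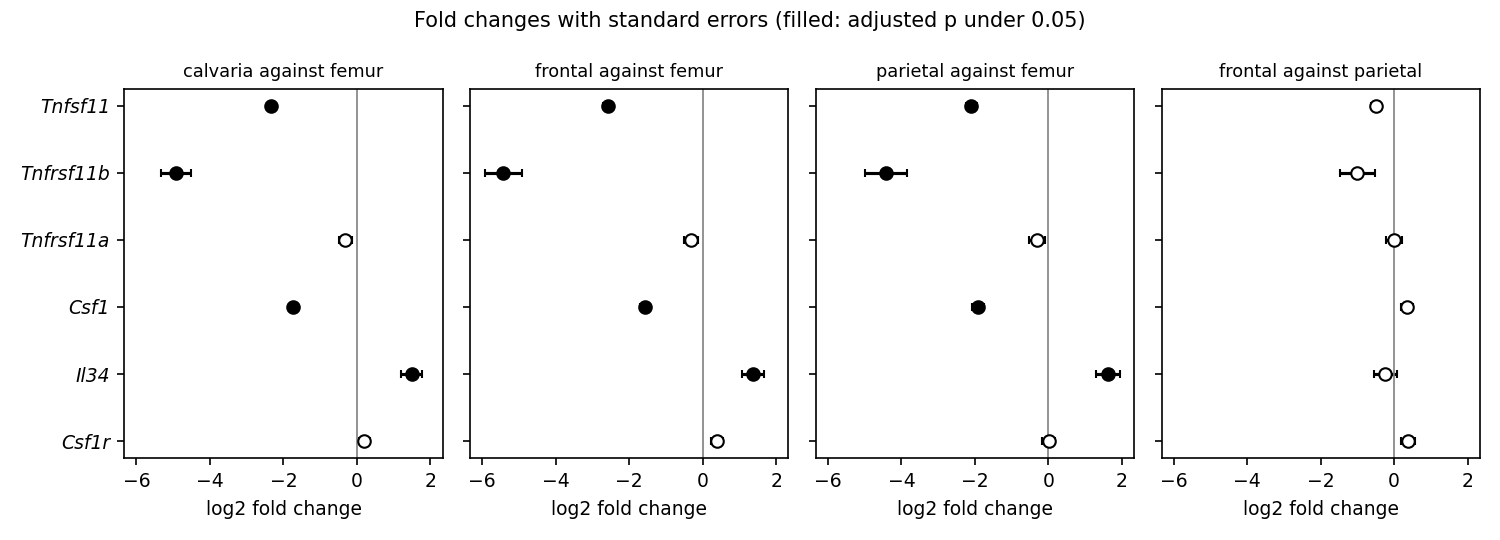
Log2 fold change (TMM scale) of the 6 genes with its standard error in 4 comparisons, filled where the adjusted p was under 0.05; the first 3 comparisons share the femur libraries. Tnfsf11, Tnfrsf11b and Csf1 lie to the left and Il34 to the right in all 3 comparisons with femur, and none is filled between frontal and parietal bone; scaled to osteocyte markers, Tnfsf11 and Csf1 turn to the right.

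Per kilobase of exon, which allows levels of different genes to be compared, the order of the 6 genes differed between bones. In femur Tnfrsf11b stood first at 357 ± 146 CPM per kilobase (SD, n = 3), followed by Tnfsf11 (51.0 ± 1.34) and Csf1 (49.6 ± 2.68), whose libraries overlapped. Csf1r (19.6 ± 4.84), Tnfrsf11a (2.88 ± 0.665) and Il34 (1.62 ± 0.543) came next, each without overlap with its neighbour. In frontal bone the receptor gene Csf1r stood first at 25.6 ± 1.47 CPM per kilobase (n = 3), ahead of Csf1 (16.8 ± 3.02). Tnfsf11 (8.46 ± 0.618), Tnfrsf11b (8.22 ± 4.65) and Il34 (4.14 ± 1.09) followed, with overlap between each and the next, and Tnfrsf11a (2.32 ± 0.166) was last. In parietal bone the order was Csf1r (19.7 ± 1.75, n = 2), Tnfrsf11b (16.6 ± 2.39), Csf1 (13.2 ± 0.269), Tnfsf11 (11.9 ± 0.974), Il34 (4.92 ± 0.608) and Tnfrsf11a (2.32 ± 0.198), with no overlap between neighbours. Il34 thus ranked below Tnfrsf11a in femur and above it in both skull bones.

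Since osteocyte markers themselves took so different a share, each ligand and the decoy were also set against the mean log2 CPM of the 11 osteocyte markers within each library. Tnfsf11 lay -1.04, -0.80 and -0.59 from that mean in femur libraries 1, 2 and 4. It lay -0.15, -0.21 and -0.13 from it in frontal libraries 1, 2 and 4, while parietal libraries 2 and 4 lay 0.17 and 0.16 above it. Relative to the mean of the markers Tnfsf11 was thus higher in calvaria by 0.78 in log2, with no overlap. The 11 markers did not move as 1, with log2 fold changes from -6.04 to 0.49 on the TMM scale. Scaled to their own mean, 4 of them were higher in calvaria and 5 lower by edgeR. With libraries scaled to these markers, 95.2% of all tested genes were higher in calvaria by edgeR and 0.954% lower. Being higher on this scale thus sets no gene apart by itself. Csf1 was higher by 1.46 and Il34 by 4.64, also without overlap, and Tnfrsf11b, at 2.23 ± 0.52 (SD, n = 3) in femur and 0.37 ± 0.73 (n = 5) in calvaria, differed by -1.86. Each of these 4 differences had an exact two-sided permutation p of 0.0179, the smallest possible (0.0223 adjusted over 10 relations). When 1 library was left out, the adjusted p rose at most to 0.068 for all but Tnfrsf11b, and to 0.119 for it. Leaving a library out raises the smallest possible p, since fewer splits remain. With the median of the markers in place of the mean, the Tnfrsf11b difference was -1.24 and did not pass (exact permutation p = 0.125), nor did it without femur library 1 or 2 (exact permutation p = 0.0952 each). The direction of Tnfsf11 and Csf1 thus depended on the reference, total counts or osteocyte markers.

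The receptor genes were set against markers of the cells known to carry them. Tnfrsf11a lay -0.90, -1.21 and -1.58 in log2 from the mean of the osteoclast markers in femur libraries 1, 2 and 4. It lay -2.13, -2.42 and -2.46 from it in frontal libraries 1, 2 and 4, while parietal libraries 2 and 4 lay at -2.51 and -2.62. All calvarial libraries were below all femur ones, with a difference of -1.19, and the difference was -0.97 against monocyte and macrophage markers (exact two-sided permutation p = 0.0179 each, 0.0223 adjusted over 10 relations). The 2 lists themselves had median log2 fold changes of 1.04 and 0.74 on the TMM scale, where Tnfrsf11a had -0.32 and did not pass. A gene without change would thus also lie lower on these scales. The share of all genes that do was not counted. Csf1r differed by -0.64 against osteoclast markers (exact permutation p = 0.0536, 0.0595 adjusted) and by -0.42 against monocyte and macrophage markers (exact permutation p = 0.232), with overlap in both. Its 2 parietal libraries lay below all others on both scales, an order that was not tested. Of 12 osteoclast markers 6 were higher in calvaria and 1 lower on the TMM scale, where 29.6% and 31.4% of all genes were. The acid-secretion genes Car2 (2.39) and Atp6v0d2 (1.45) and the protease gene Ctsk (1.17) were higher in log2 and the integrin gene Itgb3 (-1.07) lower. Of 14 monocyte and macrophage markers 11 were higher, such as Lyz2 (1.79), Ly6c2 (1.74) and Ccr2 (1.48), and 2 lower, such as Mertk (-1.77).

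**Figure D4:**
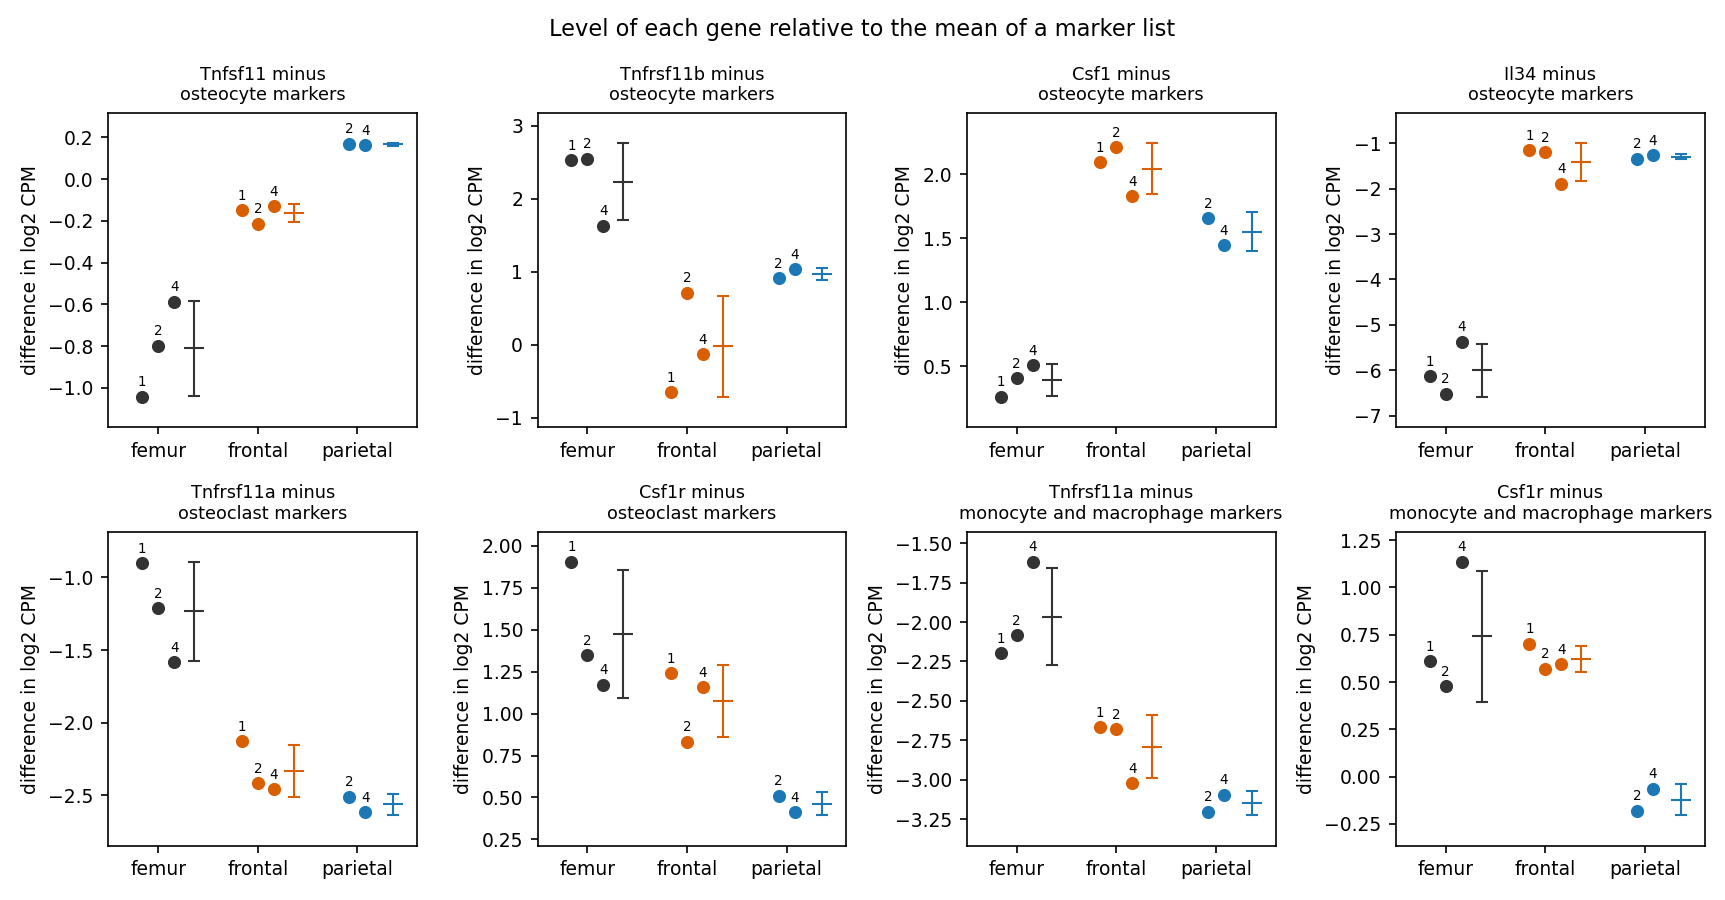
Log2 CPM of a gene minus the mean log2 CPM of a marker list in every library, by bone, with mean and SD. Relative to osteocyte markers Tnfsf11, Csf1 and Il34 are higher and Tnfrsf11b lower in calvaria, by 0.78, 1.46, 4.64 and -1.86. With libraries scaled to these markers 95.2% of all tested genes were higher. Relative to osteoclast markers Tnfrsf11a is lower by -1.19 without overlap, and Csf1r overlaps. The osteoclast markers themselves had a median log2 fold change of 1.04 in calvaria on the TMM scale.

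Of 20 listed genes of the signalling chain below RANK, 11 were lower and 2 higher in calvaria on the TMM scale (median log2 fold change -0.59), against 31.4% lower, 29.6% higher and a median of 0.01 over all tested genes. Nfatc1, the master transcription factor of osteoclasts, changed by -2.75 ± 0.16 (adjusted p = 1.27e-07 by edgeR), and the NF-kappaB subunits Rela, Relb and Nfkb2 by -2.10, -1.42 and -1.37. With the trend over length and GC content removed 8 were lower and 6 higher (median -0.12), where 27.2% of all genes were lower and 31.8% higher. On the osteocyte scale all 20 were higher, as were 95.2% of all genes. The chain below CSF1R and its costimulatory partners had 3 of 13 lower and 3 higher (median 0.04), shares near or below the 31.4% and 29.6% of all genes. The adaptors Tyrobp (1.62 ± 0.19) and Fcer1g (1.38 ± 0.17), which pair with immune receptors on myeloid cells, were higher, and the growth factor signal carriers Sos1 (-1.67 ± 0.17) and Grb2 (-0.81 ± 0.10) lower. With the length and GC trend removed 8 of the 13 were higher, against 31.8% of all genes, and on the osteocyte scale all 13 were, against 95.2%.

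Other proteins that bind or shed RANKL, osteoprotegerin, CSF1 or IL34 had 5 of 8 genes lower and none higher on the TMM scale (median -0.99). Of all tested genes 31.4% were lower. On the osteocyte scale 7 of the 8 were higher, where 95.2% of all genes were. Lgr4, known in mice as another receptor for RANKL, changed by -1.82 ± 0.22. Mmp14, a membrane protease that can shed RANKL, changed by -2.45 ± 0.12, and Sdc1, a heparan sulfate proteoglycan that osteoprotegerin binds, by -1.26 ± 0.14. The receptor phosphatase gene Ptprz1 changed by -2.91 ± 0.28. Adam10, Adam17 and Tnfsf10, named after their values were seen as the 3 that did not pass, had -0.23, -0.16 and 0.0007.

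Known inducers of Tnfsf11 in stromal cells and osteocytes had 11 of 18 lower and 2 higher (median -0.85), against 31.4% and 29.6% of all genes. On the osteocyte scale 16 of the 18 were higher, a share not above the 95.2% of all genes. Il11, a gp130 cytokine, stood at 83.4, 87.4 and 37.1 CPM in femur libraries 1, 2 and 4. It stood at 0.140 to 1.07 CPM in calvaria, a log2 fold change of -7.32 ± 0.39. Those calvarial levels of Il11 are near the floor, so the size of its fall is poorly known. Il6, of the same family, stood at 412 to 545 CPM in femur and 73.4 to 136 CPM in calvaria (-2.24 ± 0.12), and Lif and the shared downstream factor Stat3 changed by -3.48 and -1.74. Known inducers of Tnfrsf11b, mainly of the Wnt and BMP pathways, had 8 of 10 lower and 1 higher (median -1.81), against the same 31.4% and 29.6%. On the osteocyte scale 7 of the 10 were higher, a smaller share than the 95.2% of all genes. Bmp2 changed by -4.64 ± 0.19, the Wnt co-receptor Lrp6 by -2.36 ± 0.22 and the Wnt effector Tcf7 by -2.06 ± 0.16. Wnt16, whose mean was 6.72 CPM in femur, was at 0 counts in all 3 frontal libraries, so its fitted fold change is not given.

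**Figure D5:**
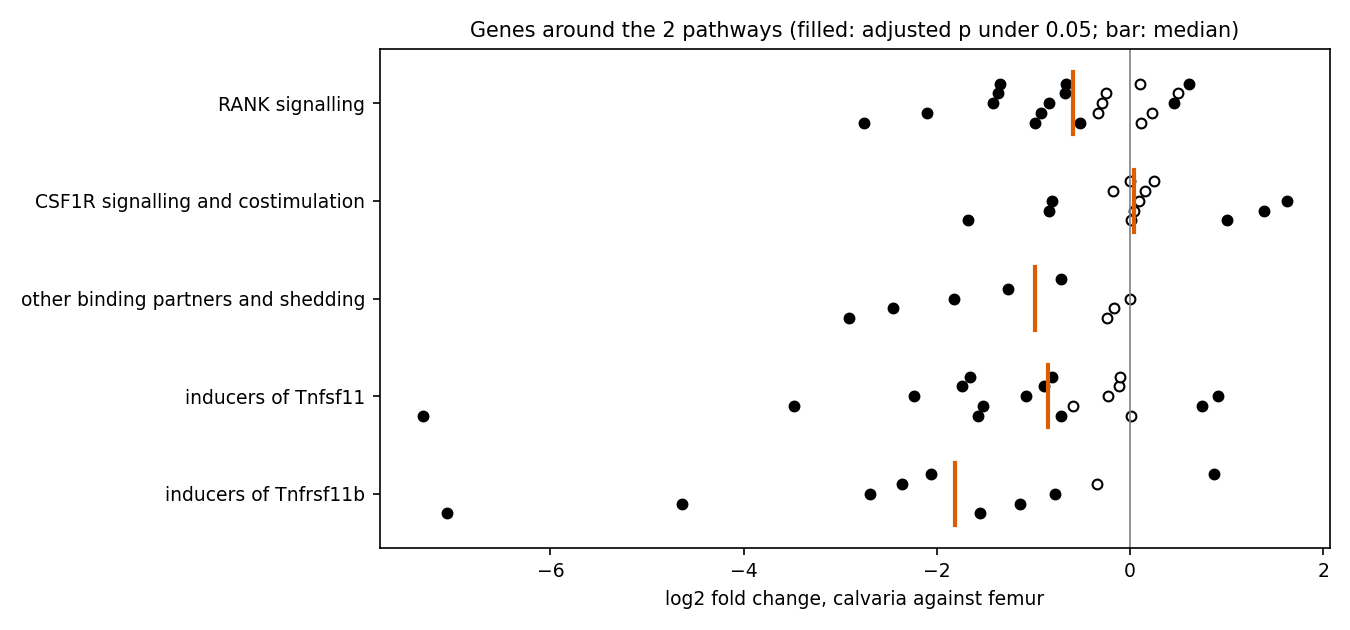
Log2 fold change (TMM scale) between calvaria and femur of each tested gene of 5 lists around the 6 genes, filled where the adjusted p was under 0.05, with the list median as a bar. Medians run from -1.81 for inducers of Tnfrsf11b to 0.04 for CSF1R signalling; on the osteocyte scale most genes of all lists, as 95.2% of all tested genes, lie to the right of 0, and the lowest point of the last list, Wnt16, rests on a fitted value at 0 counts in frontal bone.

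The 3 genes whose pattern over the 8 libraries lay closest to each member were found among 10309 genes by the root-mean-square difference of centred log2 CPM. For Tnfsf11 they were P4ha1 (0.117), a collagen prolyl hydroxylase, Il6 (0.130) and Arl4d (0.149). For Tnfrsf11b they were the cell adhesion gene Epcam (0.308), the semaphorin Sema3d (0.325) and Wnt1 (0.372). The closest to Tnfrsf11b were thus farther from it than those of Tnfsf11 were from their gene. For Tnfrsf11a they were Lyst (0.0855), Fam53a (0.0999) and Slc25a24 (0.103), and for Csf1 the basement membrane gene Nid1 (0.0874), the cytokine signal inhibitor Socs1 (0.103) and Gatad2a (0.108). For Il34 they were Nudt19 (0.202), the guanylate cyclase subunit Gucy1b1 (0.202) and Zmat5 (0.209), and for Csf1r Lsm2 (0.0571), Arsb (0.103) and Lmf1 (0.108). The pattern is dominated by the difference between femur and calvaria for the 4 genes that changed, which the neighbours shared (for example -2.41 for P4ha1, -4.53 for Epcam, -1.64 for Nid1 and 1.52 for Nudt19).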

How the data were processed

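RNA-seq counts were analysed from 8 paired-end libraries, made with Nextera XT per the labels' protocols. The authors deposited raw counts per gene (43438 rows, of which 92 are spike-in controls, left out here), a filtered subset of the same counts, and a scaled signal, named CPM with TMM, that equals the counts divided by 1 factor per library. Per the submitters' processing notes, the authors' tools included STAR 2.5.2a, limma, edgeR and DESeq2, with mm10 and GRCm38.p3 as builds. Not given in the sources used here are the annotation, the counter and whether it used strand. Lengths and positions are those of GENCODE M21 (GRCm38), whose release may differ from that behind the counts, since ID versions differ for 3 of the 6 genes.

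The test was edgeR 4.0.16 (R 4.3.3), with filterByExpr, TMM, and a robust quasi-likelihood fit with the 3 bones as groups over all 8 libraries (5 residual degrees of freedom, biological coefficient of variation 18.6%). Calvaria is the mean of frontal and parietal bone. Benjamini-Hochberg adjustment ran over all 15511 genes, and SE derived from the F statistic. Ratios and levels relative to marker lists were compared by exact two-sided permutation of 5 calvarial and 3 femur libraries, adjusted over 10 relations. Comparing 3 libraries with 3 cannot give a p below 0.1, so these measures are given for single bones as values only. Alternatives were DESeq2 1.42.0, limma-voom (limma 3.58.1), limma on the authors' table with 0.5 added, library totals only, scaling to 11 osteocyte markers, no filter, a replicate block, removal of the length and GC trend, another pseudocount or list summary, and leaving out each library. The edgeR step was tested on simulated data in which few genes changed. That run cannot test the TMM scale where most genes are called, as in calvaria against femur here. Libraries of the same bone all differed by more than sampling noise.

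The 6 genes and the 17 lists were chosen with earlier results of these data known. Named genes are the 6, the 4 genes with the smallest p in each list whose genes are described, and the 3 nearest patterns among genes averaging 5 CPM or more, without pseudogenes, predicted models or antigen receptor segments. Outside this rule, Col2a1, Adam10, Adam17 and Tnfsf10 were named after their values were seen, as were genes that overlap a member. Promoters are RefSeq's.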

Additional observations from a re-analysis of the deposited data

Results flagged for a closer look

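Relative to the mean of the osteocyte markers, Il34 in frontal library 4 lay at -1.89 in log2, while the other 4 calvarial libraries lay between -1.34 and -1.15. Its gap to the nearest of them was large against the whole range of the 5 calvarial libraries. It still lay above all femur libraries (-6.51 to -5.37). Such a gap arises by chance in about 1 of 20 groups, and 16 sets of values were examined. Il34 had 41 counts in that library, and without it the difference between calvaria and femur on this scale was 4.77.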

How the results depend on the processing

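Scaled to the osteocyte markers, which moves the median gene to 3.15, 3.24 and 3.06 in calvaria, frontal and parietal bone against femur, 14916, 14797 and 14676 genes were called, and 0 between frontal and parietal bone. On it Tnfsf11 turned to 0.80, 0.63 and 0.96, Csf1 to 1.41, 1.66 and 1.16 and Tnfrsf11a to 2.80, 2.88 and 2.72 in these 3 comparisons, as its construction fixes for any gene that fell less than the markers. Library totals only moved the median gene to 0.107, 0.158 and 0.0604. Under every other alternative run, Tnfsf11, Tnfrsf11b, Csf1 and Il34 kept their direction and passed against femur in all 3 comparisons. Csf1r in frontal bone also passed with library totals only (0.52), no filter (0.43), limma-voom (0.41) and the authors' table (0.50). Its parietal value turned to -0.028 with the replicate block, and ranged from -0.14 to 0.22 with a library left out. The difference of Tnfrsf11a between frontal and parietal bone, near 0, turned to 0.0796 (library totals only), 0.16 (osteocyte markers), 0.042 (no filter), 0.0804 (replicate block), 0.0104 (limma-voom) and 0.0397 (the authors' table), and ranged from -0.0511 to 0.13 with a library left out. The cause was not tested.

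Between frontal and parietal bone 1118 genes were called, 1904 with no filter, 2036 by DESeq2, 107 with the length and GC trend removed and 0 with the replicate block, and 0 to 1963 with a library left out. It was 0 on leaving out either parietal library, frontal library 1 or femur library 2. Calls for calvaria, frontal and parietal bone against femur ran from 8260 to 9467, 7483 to 8366 and 6615 to 8841 with a library left out. The Tnfrsf11b difference relative to osteocyte markers ran from -2.16 to -1.60 with a library left out, not past the threshold without femur library 1 or 2 (exact permutation p = 0.0952 each), and was -1.24 with the median of the markers (p = 0.125 by exact permutation). Without 1 femur library the exact test cannot go below 0.0476.

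Deviations of same-numbered libraries from the mean of their bone had correlations of -0.0887 to 0.143, and those of different-numbered ones -0.143 to 0.144. With means over only 2 or 3 libraries per bone, this check cannot tell whether a number marks 1 animal. The main tests treat the libraries as unpaired and independent. If a number marks 1 animal, libraries of that number are not independent, and the p-values of the main tests do not allow for that. The replicate block left each call of the 6 genes against femur as it was except Csf1r in frontal bone (0.41, adjusted p = 0.0386 by edgeR). Within numbers, the mean log2 difference of the Tnfsf11 to Tnfrsf11b ratio was 2.79 and of the Csf1 to Il34 ratio -3.19. Depth limits Il34 most, with 19 to 36 counts per femur library. The parietal bone has 2 libraries, so the spread of that bone is poorly known.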

Other observations

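Markers of marrow stroma and adipocytes, cells also known to make CSF1 and RANKL, took 0.0932 to 0.111% of counts in femur and 0.170 to 0.224% in calvaria, and 5 of 8 tested members were higher in calvaria and 2 lower on the TMM scale, where 29.6% and 31.4% of all genes were. Cxcl12, a chemokine of marrow stroma, stood at 706, 559 and 699 CPM in femur libraries 1, 2 and 4, at 1309, 1576 and 1370.0 CPM in frontal libraries 1, 2 and 4 and at 1747 and 1625 CPM in parietal libraries 2 and 4. Its log2 fold change in calvaria was 1.24 ± 0.13 (adjusted p = 1.02e-05 by edgeR). Foxc1, a transcription factor of marrow stroma, was lower, at -1.82 ± 0.23 (adjusted p = 3.51e-05 by edgeR), and the lipase gene Lpl higher, at 0.76 ± 0.11 (adjusted p = 9.87e-05 by edgeR). Adipoq, the adipocyte hormone adiponectin, differed by 0.87 ± 0.18 (adjusted p = 0.00148 by edgeR), but removing the trend over length and GC content ended that call (0.23, adjusted p = 0.338). Fibroblast and periosteum markers took 0.155 to 0.196% in femur and 0.0521 to 0.139% in calvaria. The part of these markers in the results on Csf1 and Tnfsf11 was not tested.

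Spike-in controls, outside all comparisons, amounted to 0.0286 to 0.116% of all counts (genes and spike-ins) in femur libraries. They amounted to 0.0597 to 0.176% in frontal and 0.105 to 0.142% in parietal libraries, and these ranges overlapped.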
